A study of Homo sapiens with 6 samples.

Results

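The 10 genes described here encode chemokines and cytokines that epithelial cells can release, namely CXCL1, CXCL2, CXCL3, CXCL5, CXCL8, CXCL16, CCL20, CCL28, IL18 and CX3CL1. They were chosen by gene symbol and are 10 of the 19223 symbols in the table. The cells were LoVo, a long-established human line derived from an adenocarcinoma of the colon. RNA was sequenced from 3 Control libraries, labelled in one place as vehicle and in another only as not given the inhibitor, and from 3 libraries of cells given 2.5 μM DCC-2036 (rebastinib), a tyrosine kinase inhibitor. The labels give 48 h of treatment for both groups, whereas a figure legend of the study gives a shorter exposure, so the time is uncertain. The labels do not say whether the 3 libraries of a group came from separate cultures, so p-values measure the spread between these libraries, which may be technical. The comparison asks how the inhibitor changed the RNA of these genes in tumor cells cultured without immune cells.

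Chemokines are small secreted proteins that guide leukocytes along a gradient. CXCL1, CXCL2, CXCL3, CXCL5 and CXCL8 attract neutrophils through CXCR1 and CXCR2, and their genes lie together on chromosome 4. CCL20 binds CCR6 and CCL28 binds CCR10 and CCR3, while CXCL16 and CX3CL1 are made as membrane-bound proteins that proteases can release. IL-18, the product of IL18, is a cytokine of the IL-1 family that gut epithelium makes as an inactive precursor, which caspase-1 cuts.

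The file does not name the unit of its values. Each is taken here as a normalized signal per RefSeq transcript, already adjusted to a common depth by the authors and not per length, so the number of reads behind it is unknown. Where a symbol had several transcripts, the one of highest average across the 6 libraries stands for it. Column totals of these values were 38997229, 39956227 and 40587145 in the Control libraries, against 43279603, 45957597 and 48023306 under DCC-2036. Genes that reached 10 in 3 or more libraries were tested with limma on log2(value + 1), two-sided, and called at a Benjamini-Hochberg adjusted p under 0.01. Fold changes are on this scale, DCC-2036 minus Control, and for genes with low values they are smaller than the log2 ratio of the values.

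Several of these genes share short promoter motifs. RefSeq promoters (GRCh38.p14) were matched for 7 of the 10 members, leaving out IL18, CXCL16 and CX3CL1. In the 250 bases before the start site, on either strand, GAATTTCC, the core of an NF-kB-type site, was found in CXCL1, CXCL2, CXCL3, CXCL5 and CXCL8, and in 1.11% of the 35116 promoters. GGGCGG, a GC box, was found in CXCL1, CXCL3 and CCL28 and in 42.6% of all promoters. TGANTCA, an AP-1-type site, was found in CXCL8 and in 6.57%. The windows around GAATTTCC are shown because NF-kB genes are described further on. Capitals mark the 3 motifs, and sequences run 5′ to 3′ on the gene's strand, plus for CXCL8 and CXCL1 and minus for CXCL5, CXCL3 and CXCL2. They lie at chr4:73740399-73740505 for CXCL8, chr4:73869236-73869343 for CXCL1, chr4:73998748-73998777 for CXCL5, chr4:74038748-74038777 for CXCL3 and chr4:74099253-74099282 for CXCL2. Only 30 bases are given for the last 3, whose start in GENCODE 29 lies further upstream.
CXCL8: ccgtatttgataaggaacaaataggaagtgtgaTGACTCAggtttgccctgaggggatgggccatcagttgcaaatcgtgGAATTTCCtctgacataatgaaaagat
CXCL1: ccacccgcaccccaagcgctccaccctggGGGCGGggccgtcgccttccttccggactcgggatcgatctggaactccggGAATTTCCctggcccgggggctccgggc
CXCL5: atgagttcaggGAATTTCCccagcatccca
CXCL3: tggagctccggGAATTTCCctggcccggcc
CXCL2: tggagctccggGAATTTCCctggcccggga
A match describes letters in a window and does not show that a factor binds there.

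Of the 10 members, 4 passed the filter on low values and 1 of these was called, IL18, which was higher with DCC-2036. Over all 12725 genes tested, 41.9% were called, 19.2% as higher and 22.7% as lower, so 1 of 4 is not above the background. Higher genes made up 45.8% of all calls in the main fit, 32.7% with library totals made equal and 50.7% with libraries scaled by median of ratios. IL18 and CXCL16 together made up 96.2% to 97.1% of the summed value of the 10 members in every library. CXCL2, CXCL5, CCL20, CCL28 and CX3CL1 were below a value of 10 in all 6 libraries, as were 30.4% of all symbols. CXCL3 was below 10 in the 3 Control libraries and in DCC-2036 replicate 1, and CXCL1 was below 10 in Control replicate 2 and in DCC-2036 replicates 1 and 2.

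**Figure D1:**
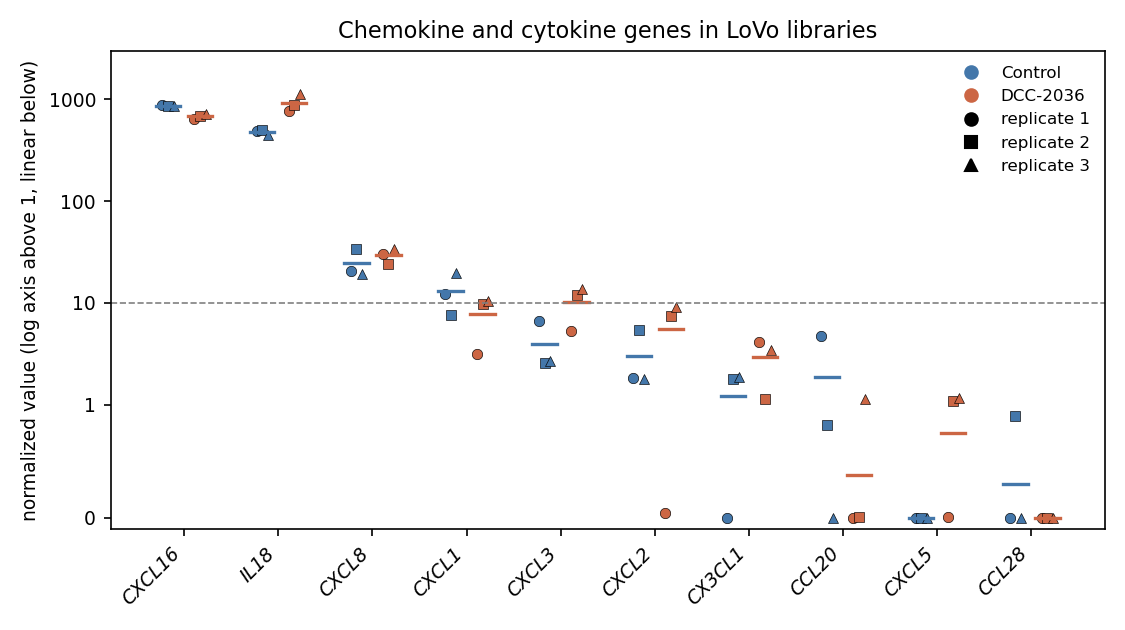
Normalized values (vertical axis, logarithmic above 1 and linear below) of the 10 members in 3 Control and 3 DCC-2036 libraries; points are libraries, short lines are group means, and the dashed line marks 10. IL18 lies between 445 and 496 in Control and between 766 and 1120.2 in DCC-2036, while 5 members stay under the dashed line in all libraries.

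IL18 (NM_001562.3) lies at chr11:112143251-112164117 on the minus strand (GENCODE 29, GRCh38). Its values measured 484, 496 and 445 in the Control libraries, against 766, 888 and 1120.2 under DCC-2036. All 3 DCC-2036 libraries were higher than every Control library, and the DCC-2036 libraries differed more among themselves. Across all tested genes, the median absolute log2 difference from a Control library was 0.495 to 0.508 for DCC-2036 replicate 1, 0.604 to 0.616 for replicate 2 and 0.737 to 0.755 for replicate 3. It was 0.391 between DCC-2036 replicates 1 and 3, and 0.105 to 0.137 among Control libraries. IL18 moved away from Control in the same order of replicates, as did 56.9% of all 5329 called genes, while 10.3% ran in the reverse order. Of 28 called genes chosen from the members, lists and markers, 14 ran in order and 4 in reverse. These 28 leave out overlapping genes and nearest profiles. They count IL18R1, NLRC4, CCL22, IL23A and TNFRSF1B, whose tests in the main fit are not used, as described further on. CXCL16, which was not called, also ran in reverse. The part of this order in the values was not tested, and without DCC-2036 replicate 3 IL18 was still called, with a log2 fold change of 0.80 (limma, adjusted p = 0.00207). Group means were 475 ± 26.6 in Control and 925 ± 180.0 with the inhibitor (SD, n = 3 each), a ratio of 1.95. The log2 fold change was 0.94 with a standard error of 0.157 and a 95% interval from 0.56 to 1.32 (limma, adjusted p = 0.00296). It ranked 1233 from the highest among the 12725 tested genes. A second IL18 transcript, NM_001243211.1, stood at 373, 368 and 340.4 in the Control libraries, against 602, 700.3 and 899.7 under DCC-2036, or 0.742 to 0.803 of the first in every library. Transcripts of 1 gene can share reads, so the second is not separate evidence. The call was lost without any 1 Control library or without DCC-2036 replicate 2. Those 4 fits called fewer genes in all, 929 to 968 higher and 1502 to 1650 lower, against 2442 and 2887, so such losses were not particular to IL18. With limma, the log2 fold change of IL18 was 0.96 without Control replicate 1 (adjusted p = 0.014), 0.97 without Control replicate 2 (adjusted p = 0.0132), 0.90 without Control replicate 3 (adjusted p = 0.0157) and 0.96 without DCC-2036 replicate 2 (adjusted p = 0.0132). Over all alternatives its adjusted p ran from 0.000689 to 0.0157, with the log2 fold change between 0.74 and 1.07.

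CXCL16 (NM_022059.3), the ligand of CXCR6, lies at chr17:4733526-4739922 on the minus strand. Its values measured 875, 856 and 861 in the Control libraries, against 642, 687 and 716 under DCC-2036. Every DCC-2036 library was lower than every Control library. Groups without overlap, in either direction, were found in 71.1% of all tested genes. The log2 fold change was -0.34 (standard error 0.0952, 95% interval -0.57 to -0.11), with an adjusted p of 0.0197 in limma, which missed the limit of 0.01. At a limit of 0.05, which 62.2% of all tested genes passed, it would be called in the main fit. It missed that limit too with libraries scaled by median of ratios (log2 fold change -0.26, limma, adjusted p = 0.0689) and without any 1 Control library or DCC-2036 replicate 2 (adjusted p from 0.0651 to 0.0707). With library totals made equal, the log2 fold change was -0.54 and the gene was called lower (limma, adjusted p = 0.00278). In the annotation, CXCL16 shares 85 exon bases with MED11 on the opposite strand, and whether counting used strand is not given in the sources used here. MED11 was measured at 151, 160 and 163 in the Control libraries, against 36.4, 58.4 and 65.2 under DCC-2036, a fall called in limma (log2 fold change -1.59, adjusted p = 0.00152), and its part in the values of CXCL16 was not tested. The second CXCL16 transcript, NM_001100812.1, measured 587, 534 and 533 in the Control libraries, against 397, 437 and 443 under DCC-2036.

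If the values are not already per length, as taken here, the mean of IL18 per kilobase was above that of CXCL16 in both groups. This holds for the chosen transcripts, and the second transcripts were not compared in this way. Per kilobase of transcript, IL18 stood at 414 ± 23.2 and CXCL16 at 389 ± 4.49 in Control (SD, n = 3), a gap of about 1 SD of IL18. In DCC-2036 the levels per kilobase were 806 ± 157 for IL18 and 307 ± 16.9 for CXCL16. The ratio of the 2 values, not corrected for length, was 0.553, 0.580 and 0.517 in the Control libraries, against 1.19, 1.29 and 1.56 under DCC-2036, without overlap. A two-sided exact permutation test gave p = 0.1 for each of IL18 and CXCL16, the smallest that 3 libraries against 3 allow, and p = 0.3 for CXCL8 and 0.4 for CXCL1.

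CXCL8 and CXCL1 were the tested members of the neutrophil-attracting group, and neither was called. CXCL8, which encodes IL-8 and lies at chr4:73740506-73743716 on the plus strand, stood at 20.6, 33.8 and 19.2 in the Control libraries, against 30.1, 24.0 and 33.8 under DCC-2036. The groups overlapped, and the log2 fold change of 0.28 had a 95% interval from -0.30 to 0.86 (limma, adjusted p = 0.343). CXCL1, at chr4:73869393-73871242 on the plus strand, was measured at 12.2, 7.65 and 19.5 in the Control libraries, against 3.17, 9.68 and 10.4 under DCC-2036. These groups also overlapped, with a log2 fold change of -0.74 and a 95% interval from -1.88 to 0.40 (limma, adjusted p = 0.212). Leaving out 1 library moved the log2 fold change of CXCL8 between 0.13 and 0.52 and that of CXCL1 between -1.05 and -0.27, and with libraries of equal totals that of CXCL8 was 0.09. Both intervals include 0 and are wide, and they do not show that the genes were unaltered.

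The other members of that group were too low for the main filter. With no filter CXCL3, CXCL2 and CXCL5 were tested and not called (limma, adjusted p = 0.0799, 0.83 and 0.113). CXCL3, at chr4:74036589-74038807 on the minus strand, measured 6.66, 2.55 and 2.71 in the Control libraries, against 5.25, 11.9 and 13.8 under DCC-2036. CXCL2, at chr4:74097035-74099293 on the minus strand, stood at 1.85, 5.41 and 1.79 in the Control libraries, against 0.0446, 7.51 and 9.11 under DCC-2036. In both genes the DCC-2036 libraries other than replicate 1 were higher than all 3 Control libraries, while replicate 1 lay within or under the Control range. CXCL5, at chr4:73995642-73998779 on the minus strand, was listed at 0 in all Control libraries and at 0.0065, 1.08 and 1.16 in DCC-2036. CXCL1, CXCL2 and CXCL3 are close copies. Of the 50-base windows of CXCL2, 9.24% also occur in another transcript of CXCL1, CXCL3, CXCL5, CXCL6 or CXCL8, so reads could be split between these genes and their values are uncertain.

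CCL20, CCL28 and CX3CL1 were at or near the floor of the table. CCL20, at chr2:227805739-227817564 on the plus strand, was measured at 4.79, 0.82 and 0 in the Control libraries, against 0.0033, 0.007 and 1.13 under DCC-2036, and its 2 listed transcripts carried the same values. CCL28, at chr5:43376645-43412391 on the minus strand, was listed at 0 in 5 libraries and at 0.90 in Control replicate 2. CX3CL1, known as fractalkine and located at chr16:57372458-57385048 on the plus strand, measured 0, 1.78 and 1.86 in the Control libraries, against 4.13, 1.14 and 3.49 under DCC-2036, with overlap. Values above 0 and under 0.5 occurred for 2061, 2354 and 2277 transcripts in the DCC-2036 libraries and for 0 in each Control library. The lowest values thus differ in form between the groups, and no fold is given for these members. Whether the columns of both groups were made in the same way is not given in the sources used here, and this bears on every fold change between them.

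**Figure D2:**
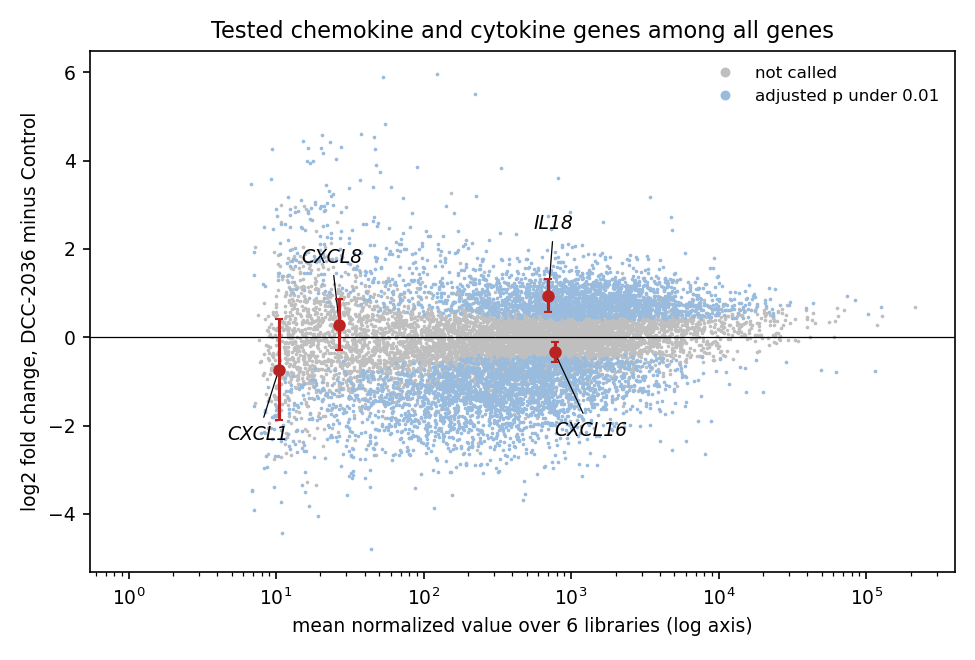
Log2 fold change (DCC-2036 minus Control) against mean normalized value over 6 libraries (log axis) for 12725 tested genes, with the 4 tested members in red and their 95% intervals. IL18 (0.94) lies among called genes in blue, CXCL16 (-0.34) among genes not called, and the intervals of CXCL8 and CXCL1 cross 0.

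The genes with the most similar profiles were found by the Euclidean distance between log2(value + 1) values centred on the Control mean, over 6 libraries. For IL18 they were TMX3 (distance 0.0551), ATP2B1 (0.0825), EFR3A (0.0875), and PIGY and PYURF (0.0911 each, with the same mean value). Their log2 fold changes lay between 0.92 and 0.99. For CXCL16 they were RPE (distance 0.0802), CDK9 (0.0819), USF2 (0.0828), SRSF6 (0.0869) and TRMT10B (0.10), with log2 fold changes between -0.36 and -0.32.

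Receptors of the members were low in these cells. Of 10 receptor genes, 1 passed the filter, IL18R1, the ligand-binding chain of the IL-18 receptor. It stood at 14.1, 14.0 and 18.5 in the Control libraries, against 3.13, 6.42 and 3.59 under DCC-2036, without overlap. It reached 10 in the Control libraries alone, so it entered the main fit only through the group where it is high, and its test there is not used. With a filter of at least 10 in all 6 libraries no receptor was tested, and with no filter IL18R1 was called lower, with a log2 fold change of -1.65 (limma, adjusted p = 0.0054). In the main fit, whose test is not used for this gene, the call was lost without Control replicate 3 (limma, adjusted p = 0.0102). The call with no filter was not tested with libraries left out. IL18RAP, the other chain, was at most 1.90 in Control and listed at 0 in all DCC-2036 libraries. CCR10 was the highest of the untested receptors, at 15.9 in DCC-2036 replicate 3 and at most 8.53 elsewhere. CCR6 measured 1.83, 5.36 and 3.68 in the Control libraries, against 0.0033, 1.06 and 0.0139 under DCC-2036, without overlap and not tested. CXCR6 measured 2.85, 2.68 and 0 in the Control libraries, against 6.24, 3.36 and 11.4 under DCC-2036, also without overlap and not tested. Groups without overlap were found in 71.1% of all tested genes, and the share was not counted for genes this low. The values 0.0033 and 0.0139 of CCR6 have the form that occurred in the DCC-2036 libraries alone, as described above. CXCR1 was at most 8.32, CX3CR1 at most 4.54, CCR3 at most 2.88 and CXCR2 at most 2.06, and ACKR1 was listed at 0 in all 6 libraries.

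A list of 12 genes covers the release and processing of the members. Of these, 8 were tested, 2 were called higher and 2 lower, or 4 of 8 against 41.9% of all tested genes, and the median log2 fold change was -0.02, against -0.09 over all tested genes. With a filter of at least 10 in all 6 libraries, 7 were tested, 2 were called higher and 1 lower, and the median was 0.10. Of all genes then tested, 20.9% were called higher and 24.6% lower, with a median of -0.08. ADAM17, a protease that sheds membrane proteins, was measured at 882, 830 and 817 in the Control libraries, against 1587, 1754 and 2045 under DCC-2036 and rose by a log2 fold change of 1.08 (limma, adjusted p = 0.000848). RHBDF2 encodes iRhom2, a partner of ADAM17 in its maturation. It measured 682, 657 and 726 in the Control libraries, against 270.3, 181 and 90.6 under DCC-2036. It fell by 2.06 on the log2 scale (limma, adjusted p = 0.00397). RHBDF1, also in this list, stood at 211, 212 and 237 in the Control libraries, against 201, 218 and 296 under DCC-2036. Its groups overlapped and it was not called (log2 fold change 0.10, limma, adjusted p = 0.618). ADAM10, which sheds CXCL16 and CX3CL1, had a log2 fold change of -0.14 and was not called (limma, adjusted p = 0.50), and without DCC-2036 replicate 3 this was 0.04.

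On the IL-18 side, IL18BP, a secreted protein that binds and blocks IL-18, stood at 118, 124 and 106 in the Control libraries, against 206, 189 and 176 under DCC-2036. It was called higher, with a log2 fold change of 0.72 (limma, adjusted p = 0.00255). IL18BP shares 675 exon bases with NUMA1 on the opposite strand, which stood at 4023 to 4520.0 over all 6 libraries, so its values are uncertain. ADAM17 likewise shares 1323 exon bases with IAH1, which was not called (log2 fold change 0.12, limma, adjusted p = 0.466). NLRC4, an inflammasome sensor of bacterial proteins, was measured at 17.9, 16.7 and 12.8 in the Control libraries, against 8.28, 7.57 and 5.97 under DCC-2036, so it too passed the filter through the Control libraries alone. With no filter it was called lower, with a log2 fold change of -1.02 (limma, adjusted p = 0.00776). In the main fit, whose test is not used for this gene, the call was lost without Control replicate 1 or 2 or DCC-2036 replicate 2 (limma, adjusted p up to 0.0156). A trend of the spread on the mean also ended it there (limma, adjusted p = 0.0333). The call with no filter was not tested in these ways. CASP1, the gene of caspase-1, was listed at 0 in all 6 libraries, and PYCARD was at most 3.55. CASP4 was at most 7.58 and NLRP6 at most 13.6, and neither was tested. GSDMD and NLRP1 were tested and not called (log2 fold change 0.18 and -0.53, limma, adjusted p = 0.27 and 0.091). GSDMD measured 550, 547 and 642 in the Control libraries, against 707, 694 and 570 under DCC-2036. Leaving out any 1 Control library or DCC-2036 replicate 2 ended the calls of RHBDF2 (adjusted p up to 0.0182) and IL18BP (up to 0.0139) in limma. Scaling to equal totals also ended the call of IL18BP (limma, adjusted p = 0.0171).

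**Figure D3:**
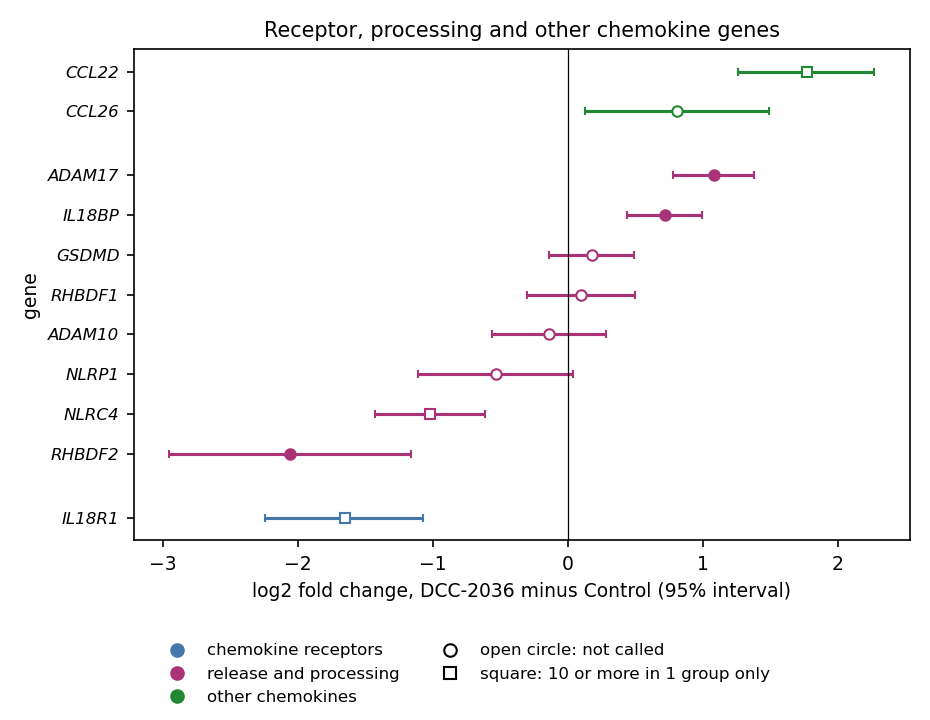
Log2 fold change (DCC-2036 minus Control, horizontal axis) with 95% intervals for the tested receptor, processing and other chemokine genes; filled points were called and open circles were not, while squares mark genes that reached 10 in 1 group only, whose tests are not used. ADAM17 (1.08) and RHBDF2 (-2.06) lie on opposite sides of 0, and the interval of RHBDF1 (0.10) crosses 0.

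NF-kB proteins are transcription factors that induce many chemokine genes, and IkB proteins hold them in the cytoplasm. All 15 genes of this list were tested, 3 were called higher and 5 lower, where 19.2% and 22.7% of all tested genes were called higher and lower, and the median log2 fold change was -0.09, equal to that of all tested genes. NFKB1, the precursor of p50, measured 948, 946 and 1012 in the Control libraries, against 1543, 1950.2 and 2386 under DCC-2036, a log2 fold change of 0.99 (limma, adjusted p = 0.00319). NFKB2, the precursor of p52, stood at 1763, 1669 and 1823 in the Control libraries, against 759, 640 and 574 under DCC-2036, a log2 fold change of -1.42 (limma, adjusted p = 0.000449). RELB, the usual partner of p52, was measured at 184, 232 and 210 in the Control libraries, against 116, 63.1 and 68.5 under DCC-2036 (log2 fold change -1.38, limma, adjusted p = 0.00364). RELA, which encodes p65, fell from 1914 ± 103 to 1039 ± 143 (SD, n = 3 libraries each, limma, adjusted p = 0.00194), and NFKBIE, an IkB protein, from 346 ± 28.9 to 141 ± 47.6 (limma, adjusted p = 0.00334). CHUK, an IkB kinase, was not called, with a log2 fold change of 0.43 (limma, adjusted p = 0.0171), and shares 37 exon bases with ERLIN1 on the same strand, which was called higher (log2 fold change 1.15, limma, adjusted p = 0.00164). The remaining called genes, named after their values were seen, were REL (0.87) and TNFAIP3 (0.84), which were higher, and NFKBIB (-0.49), which was lower. NFKB2 alone of the genes called in this list held its call in limma with any 1 library left out. The calls of NFKB1, RELB and NFKBIE were lost without any 1 Control library or without DCC-2036 replicate 2 (limma, adjusted p up to 0.0160, 0.0172 and 0.0161). That of RELA was lost without Control replicate 2, Control replicate 3 or DCC-2036 replicate 2 (adjusted p up to 0.0117). CHUK was called without DCC-2036 replicate 1 (limma, adjusted p = 0.00745) and with a trend of the spread on the mean (adjusted p = 0.00572). The call of REL was lost without any 1 Control library or DCC-2036 replicate 2 (limma, adjusted p up to 0.0203), and that of TNFAIP3 without Control replicate 1 or 2 or DCC-2036 replicate 2 (up to 0.0133). That of NFKBIB was lost without any 1 library other than DCC-2036 replicate 3 (up to 0.0409) and with libraries scaled by median of ratios (adjusted p = 0.0172) or upper quartile (adjusted p = 0.0103). With no filter, REL and NFKBIB were not called (adjusted p = 0.0104 and 0.0176).

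Messages of several chemokines carry AU-rich elements, which proteins such as ZFP36 bind to speed their decay. All 7 genes of this list were tested, 1 was called higher and 2 lower, or 3 of 7 against 41.9% of all tested genes, with a median log2 fold change of -0.13, against -0.09 for all tested genes. ZFP36, which encodes tristetraprolin, measured 635, 644 and 586 in the Control libraries, against 266, 286 and 414 under DCC-2036, and fell by 0.97 on the log2 scale (limma, adjusted p = 0.00446). HNRNPD, which encodes AUF1, stood at 7299, 7273 and 7572 in the Control libraries, against 3013, 2054 and 1876 under DCC-2036, and fell by 1.70 on the log2 scale (limma, adjusted p = 0.000744). KHSRP, another binding protein linked to decay, was measured at 8239, 8468 and 9392 in the Control libraries, against 11706, 13529 and 14634 under DCC-2036, a log2 fold change of 0.61 (limma, adjusted p = 0.00616). The calls of ZFP36 and KHSRP were lost when any 1 Control library or DCC-2036 replicate 2 was left out, with an adjusted p of at most 0.0204 and 0.0297 in limma. Both were also lost with no filter on low values (adjusted p = 0.0109 and 0.0143), and KHSRP with libraries of equal totals (adjusted p = 0.0128).

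**Figure D4:**
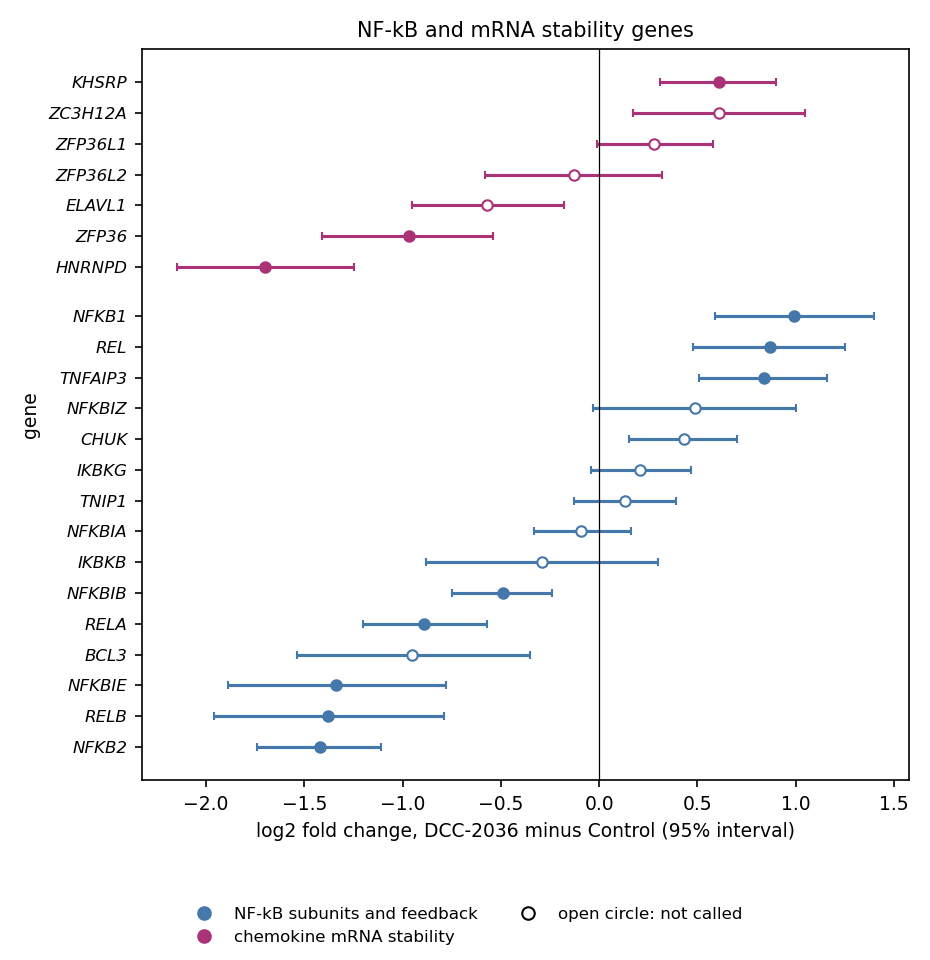
Log2 fold change (DCC-2036 minus Control, horizontal axis) with 95% intervals for the NF-kB and mRNA stability genes; filled points were called and open points were not. Within the NF-kB list NFKB1 (0.99) lies to the right of 0 and NFKB2 (-1.42) to the left.

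Among 35 chemokine genes outside the 10 members, 33 were below 10 in all 6 libraries and 2 were tested. CCL22, which binds CCR4, measured 5.58, 9.75 and 8.29 in the Control libraries, against 28.0, 33.4 and 24.8 under DCC-2036, without overlap. It passed the filter through the DCC-2036 libraries alone, so its test in the main fit is not used. With no filter it was called higher, with a log2 fold change of 1.77 (limma, adjusted p = 0.00307). With a filter of at least 10 in all 6 libraries, 1 other chemokine was tested and was not called. CCL26 stood at 18.9, 10.3 and 20.4 in the Control libraries, against 36.2, 27.1 and 23.7 under DCC-2036 and was not called (limma, adjusted p = 0.0427). Of 31 other cytokines, 8 were tested and 1 passed the limit, against 41.9% of all tested genes, namely IL23A, the p19 chain of IL-23. It measured 17.9, 14.9 and 13.8 in the Control libraries, against 8.30, 9.70 and 7.14 under DCC-2036, and so passed the filter through the Control libraries alone. With no filter it was not called (log2 fold change -0.82, limma, adjusted p = 0.0106). With a filter of at least 10 in all 6 libraries 0 of 5 other cytokines were called, with a median log2 fold change of 0.04. Of all genes then tested, 45.4% were called, with a median of -0.08. MIF, of the highest mean value, had a log2 fold change of 0.19, which became -0.01 with libraries scaled to equal totals and ran from 0.01 to 0.35 with 1 library left out, and LIF one of -0.30, which became 0.03 without DCC-2036 replicate 3; neither was called in limma (adjusted p = 0.413 and 0.384). TNF was listed at 0 in all 6 libraries.

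Upstream of NF-kB, 16 receptors and adaptors were listed. Of these, 13 were tested, 2 were called higher and 4 lower, where 19.2% and 22.7% of all tested genes were called higher and lower, and the median log2 fold change was -0.44, against -0.09 for all tested genes. With a filter of at least 10 in all 6 libraries, 1 of 11 was called higher and 5 lower, against 20.9% and 24.6% of all genes then tested. TNFRSF1A, the main TNF receptor of epithelium, was measured at 1594, 1530 and 1513 in the Control libraries, against 789, 606 and 360 under DCC-2036 (log2 fold change -1.47, limma, adjusted p = 0.00455). LTBR, the lymphotoxin beta receptor, measured 1676, 1788 and 1629 in the Control libraries, against 701, 680 and 709 under DCC-2036 (log2 fold change -1.28, limma, adjusted p = 0.000272). IRAK1, a kinase of the IL-1 and Toll-like receptor pathway, fell by 0.85 on the log2 scale (limma, adjusted p = 0.00118), and IL17RC, named after its values were seen, by 1.04. IL1RAP, the accessory chain of the IL-1 receptor, stood at 41.4, 48.6 and 31.1 in the Control libraries, against 124, 132 and 102 under DCC-2036 (log2 fold change 1.56, limma, adjusted p = 0.00101). TNFRSF1B was measured at 5.63, 3.38 and 8.38 in the Control libraries, against 23.8, 25.9 and 14.5 under DCC-2036 and was thus 1 of the 2 higher genes only by passing the filter through the DCC-2036 libraries alone. With no filter it was not called (log2 fold change 1.75, limma, adjusted p = 0.0112). The call of TNFRSF1A was lost without any 1 Control library or DCC-2036 replicate 2 (limma, adjusted p up to 0.0202). With no filter it was lost too (adjusted p = 0.0111). LTBR shares 422 exon bases with SCNN1A on the opposite strand, which also fell (log2 fold change -0.83, limma, adjusted p = 0.00147).

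Cell type markers were read beside these values. The summed value of 11 colorectal epithelial markers was 81128, 85306 and 90779 in the Control libraries, against 124494, 140314 and 163011 under DCC-2036, with KRT8 the most abundant. EPCAM measured 4651, 4558 and 4524 in the Control libraries, against 5472, 5341 and 5961 under DCC-2036, without overlap and not called (log2 fold change 0.29, limma, adjusted p = 0.0379). CDX1 was listed at 0 in all 6 libraries, and CDH17, VIL1, LGALS4 and CEACAM5 were below 10 in all 6, so 5 of the 11 markers were absent or near 0. CDX2, an intestinal transcription factor, was present, at 316, 283 and 291 in the Control libraries, against 365, 280 and 213 under DCC-2036, with overlap. KRT8 and CDH1, named after their values were seen, were called higher (log2 fold change 0.84 and 1.10, limma, adjusted p = 0.00287 and 0.000354), and KRT20, named in the same way, was called lower (log2 fold change -1.15, limma, adjusted p = 0.00427). The call of KRT8 was lost without any 1 Control library or DCC-2036 replicate 2, and that of KRT20 without Control replicate 1 or 3 and in the fit without a filter. KRT8 shares 525 exon bases with KRT18 on the opposite strand, so its values are uncertain. The 9 leukocyte markers summed to 256, 299 and 298 in the Control libraries, against 260, 289 and 357 under DCC-2036, with CD68 the most abundant, PTPRC at 0 in all 6 libraries and CD3E at most 2.29. The 7 fibroblast and endothelial markers summed to 435, 414 and 379.9 in the Control libraries, against 545, 464 and 561 under DCC-2036, with COL1A1 the most abundant. The endothelial marker VWF measured 10.4, 4.15 and 13.0 in the Control libraries, against 33.0, 15.3 and 15.6 under DCC-2036, without overlap and not called (log2 fold change 1.16, limma, adjusted p = 0.0611), while PECAM1 and CDH5 were at most 5.15 and 2.06. PDGFRB was not tested and measured 4.70, 5.30 and 3.64 in the Control libraries, against 10.4, 16.1 and 7.30 under DCC-2036.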

How the data were processed

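RNA of LoVo cells was measured in 3 Control and 3 DCC-2036 libraries, grouped by their titles. The authors deposited 1 value per RefSeq transcript and library, taken from the values as a normalized signal adjusted to a common depth and not per length, with 0 other columns of values per sample. The values are not whole numbers, so depth is unknown. The aligner, its settings and the build are not given in the sources used here. The table also holds the authors' log2 fold change, p-value and q-value, which were not used. Of 45006 transcripts, 4524 were at 0 in all 6 libraries. limma 3.58.1 in R 4.3.3 was fitted to log2(value + 1) over 12725 genes, without covariates, after the code was tested on simulated data. Exact tests used scipy 1.17.1 and levels per kilobase GENCODE 29 transcripts. Named were all members, every tested receptor, up to 4 called genes with the largest change and up to 2 with the highest mean in each list, and the 5 nearest profiles of IL18 and CXCL16. A further 7 genes, REL, TNFAIP3, NFKBIB, IL17RC, KRT8, KRT20 and CDH1, complete counts. Other list and marker genes given by their values, such as CCR6 or VWF, were chosen after their values were seen. Members and lists were chosen with earlier results of these data known. Alternatives were 3 scalings, 2 filters, 2 pseudocounts, a replicate block, each library left out, a trend, other uses of transcripts and 2 thresholds.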

Additional observations from a re-analysis of the deposited data

How the results depend on the processing

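The number of genes called moved with the libraries used and with the limit. Leaving out 1 library gave 929 to 2717 higher and 1502 to 3444 lower genes, against 2442 and 2887. The members called higher then ranged from 0 to 1, and the log2 fold change of IL18 from 0.80 to 1.07. Without DCC-2036 replicate 1 or 3 the call of IL18 stood. The cause was not tested. Asking also for an absolute log2 fold change of 1 or more left 944 higher genes and 0 members, since IL18 is at 0.94. At an adjusted p under 0.05, 3630 genes were called higher and 4290 lower, and 1 member was called lower, CXCL16 at -0.34. Scaling to equal totals also called 1 member lower, CXCL16 at -0.54. That scaling moved the median of all tested genes from -0.09 to -0.29 on the log2 scale and the share of calls that were higher from 45.8% to 32.7%, which the different scaling factors of the groups bring about by construction. CXCL1 was not tested there or with a filter of at least 10 in all 6 libraries, and kept its sign elsewhere. CXCL8 and CXCL16 kept theirs in all alternatives.

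With the replicate number as a block, 1202 genes were called higher and 1909 lower, and 0 members, with IL18 at 0.94 (limma, adjusted p = 0.0133). CXCL16 was at -0.34 there and missed the limit of 0.05 too (limma, adjusted p = 0.0549). RHBDF2, RELA, RELB, REL, NFKBIB, NFKBIE, ZFP36, KHSRP, IL23A, TNFRSF1A, TNFRSF1B and KRT20 were not called in that fit either. Deviations of same-numbered libraries correlated at 0.081, -0.035 and -0.003 across genes, and not every library correlated best with its own number. These values gave no sign of pairing by number. They cannot exclude it, because the deviations rest on 3 libraries per group.

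For 32 other genes named from the lists and markers there were 603 alternative values. Of these, 495 kept direction and side of the limit, 101 lost the call, 4 gained it and 3 changed sign, all in genes not called. The nearest profiles, overlapping genes and genes given only by their values are not among these 32, and no alternatives are given for them. IL18R1, NLRC4, CCL22, IL23A and TNFRSF1B, counted here, reached 10 in 1 group only and were not tested with a filter on all 6 libraries. The sign changes were in ADAM10 (0.04) and LIF (0.03) without DCC-2036 replicate 3, with ranges of -0.28 to 0.04 and -0.54 to 0.03 over the libraries left out, and MIF (-0.01) with equal totals. The cause was not tested. Depth is unknown, so no limit of detection can be given for the low members.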
